A study of Mus musculus with 9 samples.

Results

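Dendritic cells (DCs) that express low levels of surface MHCII in the spleens of leukemic mice (T-DCs) were compared with mature conventional DCs from normal spleens (N-mDCs) by RNA-seq. The comparison used every sample of both groups, 3 T-DC and 3 N-mDC samples, which are 6 of the 9 samples sequenced, and the other 3 samples are mature conventional DCs from leukemic spleens (T-mDCs). Of the 54532 genes listed, 12127 had at least 1 FPKM in at least 3 of the 6 samples and were tested. FPKM, the deposited unit, is the number of fragments counted on a gene, scaled to the length of the gene and to the size of the library. In T-DCs 275 genes (2.27% of those tested) were significantly higher and 811 genes (6.69%) significantly lower, which together is 8.96% (limma on log2(FPKM + 1), adjusted p under 0.05).

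T-DCs came from mice with Notch1-driven T-cell acute lymphoblastic leukemia (T-ALL). C-kit+ marrow cells of C57BL/6J mice had been infected with the retrovirus MSCV-ICN1-IRES-GFP, which carries the intracellular domain of Notch1, and the GFP+ leukemia cells that arose were transplanted without irradiation into C57BL/6J or C57B6.SJL recipients. Spleens were taken on day 15, and N-mDCs came from healthy mice without leukemia cells. The mice of the study were females of 6 to 8 weeks, and the sample labels do not tie a sample to one of the strains or say whether the 3 samples of a group are separate mice, so p-values measure the spread between these samples only. Red cells were removed with ammonium chloride, CD11c+ cells were enriched with microbeads, and CD11c+ cells with low MHCII were sorted, so a low level of MHCII is how T-DCs were defined. The methods do not say whether T, B and NK cells were gated out of the sequenced cells.

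DCs take up antigen in an immature state, when little MHCII and few costimulatory molecules are on their surface. On maturation they load peptides on MHCII, raise CD80, CD86, CD83 and CD40, and express the chemokine receptor CCR7 and the actin-bundling protein fascin, which take them to T-cell zones. Conventional DCs are divided into cDC1, which cross-present antigen to CD8+ T cells, and cDC2, which mainly prime CD4+ T cells, and both can share markers with monocytes and macrophages of the spleen.

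The 6 libraries held between 15360815 and 18440913 reads on genes, so that depth differed little between the groups. They differed in what else they held. Hemoglobin genes took 0.00733%, 0.405% and 0.0368% of the reads in N-mDC samples 1 to 3 and 0.0422%, 3.82% and 3.0% in T-DC samples 1 to 3. T-DC samples 2 and 3 were thus rich in red cell RNA, while T-DC sample 1 was within the range of N-mDCs. Over the tested genes, Pearson's r of log2(FPKM + 1) was 0.959 between T-DC samples 2 and 3, but 0.824 and 0.795 between T-DC sample 1 and these (across genes, which are not independent). For this reason each higher gene is given below with whether T-DC sample 1 shared it. A gene was counted as shared where T-DC sample 1 lay beyond all N-mDC samples and its difference from the N-mDC mean was at least 0.5 times the mean difference of T-DC samples 2 and 3.

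Of the 275 higher genes, 255 (92.7%) were shared by T-DC sample 1, and so were 762 of the 811 lower genes (94.0%). T-DC sample 1 was in the fit that made these calls, and the fit favors genes on which the 3 T-DC samples agree. These shares are thus fixed in part by the selection. All 1086 genes called had groups that did not overlap, as had 32.5% of all tested genes. The median log2 fold change was 1.56 over the higher genes, -1.84 over the lower genes and 0.07 over all genes tested. With T-DC sample 1 alone against N-mDCs, 102 of the 275 higher and 257 of the 811 lower genes were called. The counts depended on single libraries. Without N-mDC sample 1, 2 or 3, the numbers of higher genes were 40, 80 and 49 and those of lower genes 357, 460 and 270. Without T-DC sample 2 or 3 they were 60 and 119 higher and 380 and 375 lower. Without T-DC sample 1 they rose to 2043 higher and 1957 lower. Of the genes that T-DC samples 2 and 3 then called, 2042 had a positive and 1958 a negative mean over all 3 samples, and T-DC sample 1 shared 495 and 1008 of them. Rescaling FPKM to TPM lowered the median log2 fold change of all genes by 0.10 and left 167 higher and 592 lower genes.

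**Figure D1:**
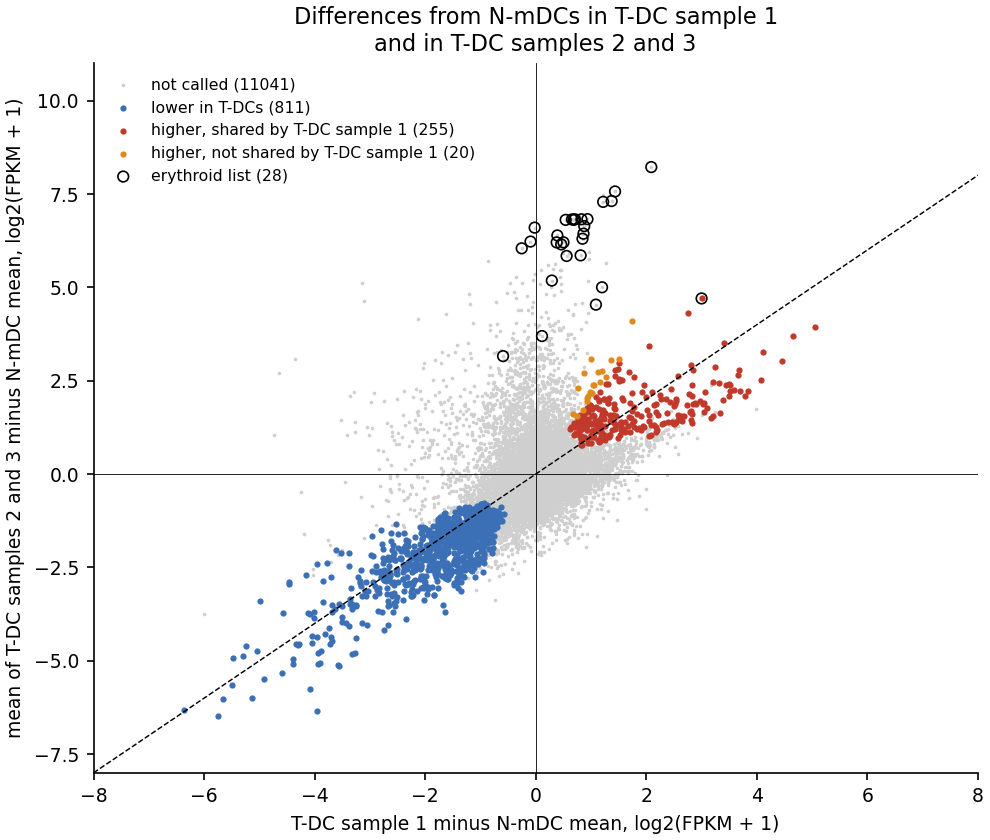
Each point is 1 of the 12127 tested genes, with the difference of T-DC sample 1 from the N-mDC mean on the x axis and the mean difference of T-DC samples 2 and 3 on the y axis (log2(FPKM + 1)), coloured by call, and the dashed line marks equal differences. The 811 lower and 255 shared higher genes, called with T-DC sample 1 in the fit, run along the line, while the circled erythroid genes stand far above it.

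Fcgr4, an activating receptor for IgG that marks monocytes and macrophages, had the largest increase of the called genes. It was 37.3, 68.0 and 44.6 FPKM in N-mDC samples 1 to 3 and 1637, 1010 and 566 FPKM in T-DC samples 1 to 3. All T-DC samples were thus far above all N-mDC samples, and T-DC sample 1, whose share of hemoglobin reads was within the range of N-mDCs, was the highest. The log2 fold change was 4.31 ± 0.44 (SE, n = 3 samples per group, adjusted p = 0.00423), and the gene was called under all 18 alternatives. Fcgr4 lies at chr1:171018920-171029761 on the plus strand (GRCm38). Gm26110, an unnamed small nuclear RNA model within Fcgr4 on the same strand (chr1:171027965-171028129), was also among the 10 largest increases, with 0, 0 and 0.668 FPKM in N-mDCs against 14.2, 8.99 and 5.59 FPKM in T-DCs. Reads of the model cannot be told apart from those of unspliced Fcgr4. In T-mDCs Fcgr4 was 407, 56.0 and 54.4 FPKM, which was not tested against T-DCs here.

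The bases before the start of Fcgr4 are shown because this gene had the widest gap between the groups among the higher ones. They come from RefSeq (GRCm38.p6), plus strand, and capitals mark a match to the interferon-stimulated response element (GAAA, any 2 bases, then GAAA) in chr1:171018823-171018892 and to a site for the myeloid factor PU.1 (GAGGAAGT, here on the opposite strand) in chr1:171018872-171018925. The stretches overlap, and the matches do not.
Fcgr4, response element: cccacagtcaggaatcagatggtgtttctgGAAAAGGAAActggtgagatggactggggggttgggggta
Fcgr4, PU.1 site: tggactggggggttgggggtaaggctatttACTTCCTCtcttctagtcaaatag
The PU.1 letters stood within 250 bases before the start in 3.06% of the 8561 tested genes with a RefSeq promoter, 4.0% of the 200 higher and 5.47% of the 567 lower genes (both strands). The response element letters stood in 3.0%, 2.50% and 5.47%. Such a match is a string of letters and no measured binding.

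S1pr5, a receptor for sphingosine 1-phosphate, was 3.43, 6.66 and 6.10 FPKM in N-mDCs against 136, 51.8 and 47.4 FPKM in T-DCs. The groups were widely apart and T-DC sample 1 was again the highest (log2 fold change 3.50 ± 0.45, adjusted p = 0.00694). Ms4a4a, a membrane protein of the MS4A family, was 7.27, 7.06 and 23.5 FPKM in N-mDCs against 297, 199 and 115 FPKM in T-DCs. It was shared by T-DC sample 1 (log2 fold change 4.01 ± 0.54, adjusted p = 0.00757), with the caveat that the family has several close copies and the handling of reads that match more than 1 of them is not given in the sources used here. Smpdl3b, a sphingomyelinase-like lipid-modifying enzyme, was 3.0, 6.38 and 7.71 FPKM in N-mDCs against 109, 82.2 and 43.4 FPKM in T-DCs. It too was shared (log2 fold change 3.54 ± 0.44, adjusted p = 0.00631).

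Cyth3, an exchange factor for ARF GTPases, had a nearly even increase. It was 3.78, 3.02 and 4.12 FPKM in N-mDCs against 32.1, 34.2 and 27.9 FPKM in T-DCs, nearly the same level in all 3 T-DC samples. The log2 fold change was 2.81 ± 0.22 (adjusted p = 0.00237). Gda, which encodes guanine deaminase, was 2.63, 5.05 and 9.05 FPKM in N-mDCs against 62.8, 114 and 40.9 FPKM in T-DCs. The increase was shared by T-DC sample 1 (log2 fold change 3.48 ± 0.49, adjusted p = 0.00920).

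Some shared genes were low in N-mDCs. Ctsk, the lysosomal protease cathepsin K, was 0.0846, 0.288 and 0.255 FPKM in N-mDCs against 7.42, 13.7 and 4.70 FPKM in T-DCs (log2 fold change 2.88 ± 0.35, adjusted p = 0.00610). These were 2, 7 and 7 reads in N-mDCs and 201, 320 and 108 reads in T-DCs. Dnah12, an axonemal dynein heavy chain, was 0.154, 0.238 and 0.518 FPKM in N-mDCs against 20.7, 7.65 and 5.36 FPKM in T-DCs (log2 fold change 3.04 ± 0.45, adjusted p = 0.0104). Both were shared by T-DC sample 1, and in both the addition of 1 to each FPKM makes the fold change smaller than the ratio of the levels. The mitochondrial serine tRNA gene mt-Ts2, which was among the shared genes with the widest gap, was also called, but it rested on 4, 3 and 3 reads in T-DCs and 0 reads in each N-mDC sample, which is near the limit that a count of 0 allows, so no fold is given.

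Pheta2, Nfe2 and Nqo1 were among the 10 largest increases and were higher in T-DC samples 2 and 3 than in T-DC sample 1. Pheta2, an endosomal trafficking adaptor, was 0.483, 0.919 and 0.615 FPKM in N-mDCs against 10.2, 32.9 and 30.9 FPKM in T-DCs (log2 fold change 3.79 ± 0.44, adjusted p = 0.00539), which meets the rule for a shared gene. Nfe2, a transcription factor of the erythroid and megakaryocyte lineages, was 1.20, 5.38 and 4.28 FPKM in N-mDCs against 32.6, 134 and 88.0 FPKM in T-DCs (log2 fold change 4.14 ± 0.60, adjusted p = 0.0101). T-DC sample 1 shared it with a difference 0.64 times that of the other samples, and with T-DC sample 1 alone its adjusted p was 0.0614. Nqo1, a quinone reductase, was 0.412, 0.200 and 0.603 FPKM in N-mDCs against 3.67, 24.4 and 21.8 FPKM in T-DCs (log2 fold change 3.32 ± 0.63, adjusted p = 0.0230), and was not counted as shared.

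**Figure D2:**
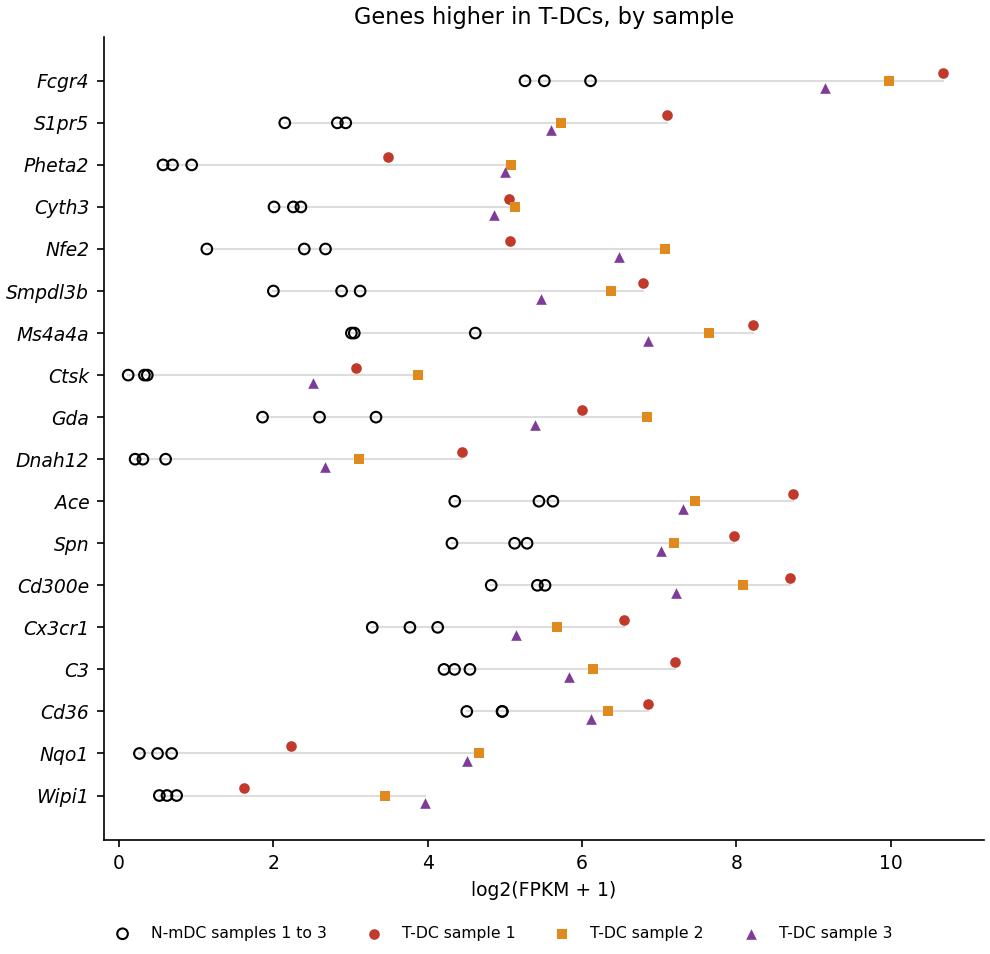
Level of 18 genes called higher in T-DCs, as log2(FPKM + 1) on the x axis, in the 3 N-mDC samples (open circles) and in T-DC samples 1, 2 and 3 (red circles, orange squares and purple triangles). In every gene all T-DC samples lie to the right of all N-mDC samples, and Nqo1 and Wipi1, the lowest rows, are those in which T-DC sample 1 did not share the increase.

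The 20 higher genes that T-DC sample 1 did not share are Nqo1, Cdkn2d, Noct, Wipi1, Grina, Rfx2, Usp32, Haspin, Rffl, Lpcat3, Pgp, Prkab1, Ccnd3, Ighv1-11, Gm25788, Acsl1, Bard1, Slc25a44, Mis12 and Ampd3. In all of them T-DC sample 1 was above the N-mDC samples, but by less than 0.5 times the difference of the other samples. Cdkn2d, an inhibitor of cyclin-dependent kinases, was 7.96, 21.7 and 18.9 FPKM in N-mDCs against 44.1, 165 and 109 FPKM in T-DCs (log2 fold change 2.55 ± 0.56, adjusted p = 0.0356). Ccnd3, a cyclin of the G1 phase, was 10.5, 14.6 and 13.6 FPKM in N-mDCs against 27, 58.7 and 63.0 FPKM in T-DCs (log2 fold change 1.79 ± 0.36, adjusted p = 0.0281). With T-DC sample 1 alone, neither was called (adjusted p = 0.222 and 0.140).

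Among the higher genes were several that are known from Ly6C-low monocytes, the patrolling monocytes of blood. A list of 28 such genes was written after their values had been seen, so its counts describe the higher genes and support nothing more. Of its 27 tested genes, 12 rose, against 2.27% of all tested genes. The median log2 fold change of the list was 1.63, with median differences of 2.52, 1.53 and 0.87 in T-DC samples 1 to 3. The summed level of the list was 2376, 3011 and 2965 FPKM in N-mDCs against 8692, 4396 and 2999 FPKM in T-DCs. The sum of T-DC sample 3 was thus within the range of N-mDCs. All 12 higher genes of the list were shared by T-DC sample 1. The rest include its master regulator Nr4a1, with 1183, 1293 and 1435 FPKM in N-mDCs against 1046, 408 and 302 FPKM in T-DCs (log2 fold change -1.36 ± 0.48, adjusted p = 0.128), and Treml4, with 87.0, 125 and 91.4 FPKM in N-mDCs against 300, 164 and 112 FPKM in T-DCs (adjusted p = 0.232). With TPM 6 of the 27 were called, and with T-DC sample 1 alone 15. Leaving out N-mDC sample 1, 2 or 3 or T-DC sample 1, 2 or 3 in turn gave 3, 4, 4, 14, 5 and 12 higher genes. Of 13 tested genes of a list for Ly6C-high monocytes, written at the same time, Plac8 fell, where 6.69% of all tested genes did. The median of this list was -0.44.

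Within that list, Spn (CD43, a sialomucin of leukocytes) was 18.9, 33.9 and 38.0 FPKM in N-mDCs against 249, 145 and 129 FPKM in T-DCs (log2 fold change 2.48 ± 0.38, adjusted p = 0.0116). Cd300e, an activating receptor of monocytes, was 27.3, 44.9 and 41.8 FPKM in N-mDCs against 414, 270 and 148 FPKM in T-DCs (log2 fold change 2.74 ± 0.42, adjusted p = 0.0118). Ace, the angiotensin-converting enzyme, was 19.4, 42.4 and 48.2 FPKM in N-mDCs against 425, 175 and 157 FPKM in T-DCs (log2 fold change 2.69 ± 0.50, adjusted p = 0.0219). Each of these 3 was highest in T-DC sample 1. Cx3cr1, the receptor of fractalkine, was 8.72, 12.6 and 16.5 FPKM in N-mDCs against 92.2, 50.1 and 34.4 FPKM in T-DCs (log2 fold change 2.06 ± 0.41, adjusted p = 0.0263). Cd36, a scavenger receptor, was 30.2, 21.7 and 30.3 FPKM in N-mDCs against 115, 80.1 and 68.4 FPKM in T-DCs (log2 fold change 1.63 ± 0.29, adjusted p = 0.0183). The others that rose were Fcgr4, S1pr5, Fabp4, Ceacam1, Pglyrp1, Dusp16 and Clec4a3, with log2 fold changes from 1.83 to 4.31.

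General markers of monocytes and macrophages moved in both directions or were not called. The counts below stand beside 2.27% of all tested genes that rose and 6.69% that fell. Of the 15 tested genes of the monocyte list, Ace and Cx3cr1 rose, and the lysozyme gene Lyz1 and Plac8 fell. The numbers higher and lower were 0 and 1 with T-DC sample 2 or any N-mDC sample left out, 4 and 6 without T-DC sample 1, and 2 and 1 without T-DC sample 3. Of the 15 tested macrophage genes, Siglec1, a sialic acid receptor of marginal zone macrophages, fell from 6.52, 5.07 and 11.3 FPKM to 1.84, 1.26 and 2.0 FPKM (adjusted p = 0.0228). In this list 0 genes were called when N-mDC sample 3 was left out, or else T-DC sample 2 or 3, and 10 without T-DC sample 1. The median of this list differed between T-DC samples, at 0.53 in T-DC sample 1 and -1.32 and -1.65 in T-DC samples 2 and 3. Spic, the transcription factor of red pulp macrophages, showed the same order, with 70.4, 130 and 87.2 FPKM in N-mDCs against 103, 28.4 and 15.7 FPKM in T-DCs. Of 18 tested complement genes 1 rose and 1, the receptor Cr2, fell, and of 27 tested glycolysis genes 1 rose and 2, the enolase Eno2 and the glucose transporter Slc2a3, fell. The genes that rose were the complement component C3 (19.4, 17.5 and 22.4 FPKM in N-mDCs against 146, 69.3 and 56.2 FPKM in T-DCs, adjusted p = 0.0222) and Tpi1, the triosephosphate isomerase of glycolysis (26.7, 44.7 and 25.3 FPKM in N-mDCs against 85.6, 66.7 and 81.0 FPKM in T-DCs, adjusted p = 0.0400). Both were shared by T-DC sample 1. With TPM neither was called (adjusted p = 0.0676 and 0.0662), and each call was lost when some libraries were left out. These were any of the N-mDC samples and T-DC sample 2 for C3, and N-mDC samples 1 and 3 and T-DC samples 2 and 3 for Tpi1.

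Of the called genes, Nr4a3, an orphan nuclear receptor induced early in activation, had the largest decrease. It was 131, 77.9 and 209 FPKM in N-mDCs against 0.578, 1.49 and 0.0550 FPKM in T-DCs. The T-DC samples had 62, 138 and 5 reads on the gene and the N-mDC samples 12235, 7507 and 22726, so that T-DC sample 3 alone was near the limit of detection. The log2 fold change was -6.34 ± 0.45 (adjusted p = 0.00237). Its paralog Nr4a2 was 63.5, 78.1 and 124 FPKM in N-mDCs against 1.27, 3.27 and 1.93 FPKM in T-DCs (log2 fold change -4.82 ± 0.35, adjusted p = 0.00237). Both were shared by T-DC sample 1, which had the lowest Nr4a2 of all samples.

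Most tested genes of DC maturation and migration were lower. Of the 20 tested genes of this list, 15 fell, all shared by T-DC sample 1, against 6.69% of all tested genes that fell, and the median log2 fold change was -3.0. T-DC sample 1 alone had 12 of the 20 lower, and 12 to 18 with any library left out. Ccr7, the receptor that guides mature DCs to lymphoid T-cell zones, was 867, 295 and 576 FPKM in N-mDCs against 9.54, 24.6 and 1.60 FPKM in T-DCs (log2 fold change -5.90 ± 0.83, adjusted p = 0.00901). Apol7c, an apolipoprotein L that is induced in maturing cDC1, was 315, 90.1 and 124 FPKM in N-mDCs against 1.84, 1.72 and 0.0959 FPKM in T-DCs (log2 fold change -6.23 ± 0.56, adjusted p = 0.00383). Tbc1d4, a Rab GTPase-activating protein, was 162, 97.3 and 141 FPKM in N-mDCs against 4.43, 3.27 and 1.55 FPKM in T-DCs (log2 fold change -5.08 ± 0.35, adjusted p = 0.00237). In all of them the highest T-DC sample was far below the lowest N-mDC sample. In T-mDCs, the mature cells of the same leukemia, Ccr7 was 539, 899 and 923 FPKM, a level given for reference only.

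Fscn1, which encodes fascin, was 241, 55.1 and 107 FPKM in N-mDCs against 4.39, 3.98 and 1.25 FPKM in T-DCs (log2 fold change -4.85 ± 0.58, adjusted p = 0.00592). The decrease was of about the same size in T-DC samples 1 and 2 and larger in T-DC sample 3. The bases before its start are shown with those of H2-Aa, a chain of MHCII, because both hold the letters of a cAMP response element (TGACGTCA), a string that activating factors of the CREB family bind. They are from RefSeq (GRCm38.p6) on the strand of each gene, at chr5:142960280-142960347 (plus strand) and chr17:34287860-34287927 (minus strand), with the match in capitals.
Fscn1: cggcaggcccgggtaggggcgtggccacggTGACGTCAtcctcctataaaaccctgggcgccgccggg
H2-Aa: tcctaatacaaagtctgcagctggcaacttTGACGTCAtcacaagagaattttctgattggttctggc
The same letters stood in 2.82% of the promoters of all tested genes, in 2.29% of those of lower genes and in 2.0% of those of higher genes, so they were about as frequent everywhere. The letters of an AP-1 site (TGANTCA) stood in 4.09%, 6.17% and 3.50%, and those of an NF-kB site (GGGA, any 2 bases, then TTCC) in 1.24%, 1.06% and 3.50%. These shares are descriptions without a test.

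The maturation markers measured by the study with flow cytometry were read here as RNA. Cd83, a surface marker of mature DCs, was 1013, 608 and 714 FPKM in N-mDCs against 48.4, 34.3 and 13 FPKM in T-DCs (log2 fold change -4.71 ± 0.49, adjusted p = 0.00428). Cd80, a ligand of CD28, was 41.1, 24.2 and 41.0 FPKM in N-mDCs against 5.10, 2.77 and 1.49 FPKM in T-DCs (log2 fold change -3.20 ± 0.39, adjusted p = 0.00592). Cd40, the receptor for T-cell help, was 23.9, 17.7 and 19.8 FPKM in N-mDCs against 1.95, 2.05 and 0.986 FPKM in T-DCs (log2 fold change -3.03 ± 0.26, adjusted p = 0.00311). These 3 genes were shared by T-DC sample 1. Cd86, the other ligand of CD28, differed from them. It was 53.4, 58.2 and 57.9 FPKM in N-mDCs against 52.2, 17.1 and 11.1 FPKM in T-DCs, so that T-DC sample 1 was close to N-mDCs, and it did not pass the test (log2 fold change -1.34 ± 0.52, adjusted p = 0.157).

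Cd83, Cd80, Cd40 and Cd86 are part of a list of genes that the study measured or named, mostly by qRT-PCR or flow cytometry. Some of them were picked by the study on these samples, so the list is no independent evidence of a direction. Of 24 genes on it, 20 passed the filter, 3 were lower (Cd83, Cd80 and Cd40), 2 were higher and 15 did not pass the test. Acsl1, an acyl-CoA synthetase, rose from 4.37, 3.55 and 4.52 FPKM to 8.73, 24 and 17.1 FPKM (log2 fold change 1.68 ± 0.36, adjusted p = 0.0336) and was not shared by T-DC sample 1. Smpdl3a, a relative of Smpdl3b, rose from 42.3, 56.3 and 62.0 FPKM to 382, 145 and 134 FPKM (log2 fold change 1.86 ± 0.44, adjusted p = 0.0452) and was shared. Of the 18 alternatives, 10 called Acsl1 and 8 called Smpdl3a, and TPM kept the call for Acsl1 only. Il10, the suppressive cytokine, was 5.13, 12.5 and 9.38 FPKM in N-mDCs against 26.8, 40.8 and 15.2 FPKM in T-DCs. All T-DC samples were above all N-mDC samples, but the test was not passed (log2 fold change 1.48 ± 0.44, adjusted p = 0.0841, and 0.0519 to 0.313 over the alternatives). C5ar1, Cebpb and the sialyltransferase gene St3gal1 had the same pattern, with adjusted p of 0.0777, 0.217 and 0.114. For Cebpb the groups barely parted, with 88.8, 261 and 178 FPKM in N-mDCs against 931, 262 and 267 FPKM in T-DCs. Csf1r (CD115), Itgam (CD11b), Adgre1 (F4/80), Cd274 (PD-L1), Pdcd1 (PD-1), Pdcd1lg2, Brd8, Tspan14 and Nrip1 overlapped between the groups, with adjusted p from 0.215 to 0.894. Ido1, Ido2, Arg1 and Nos2 were below the filter, with at most 29 reads in any of the 6 samples.

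**Figure D3:**
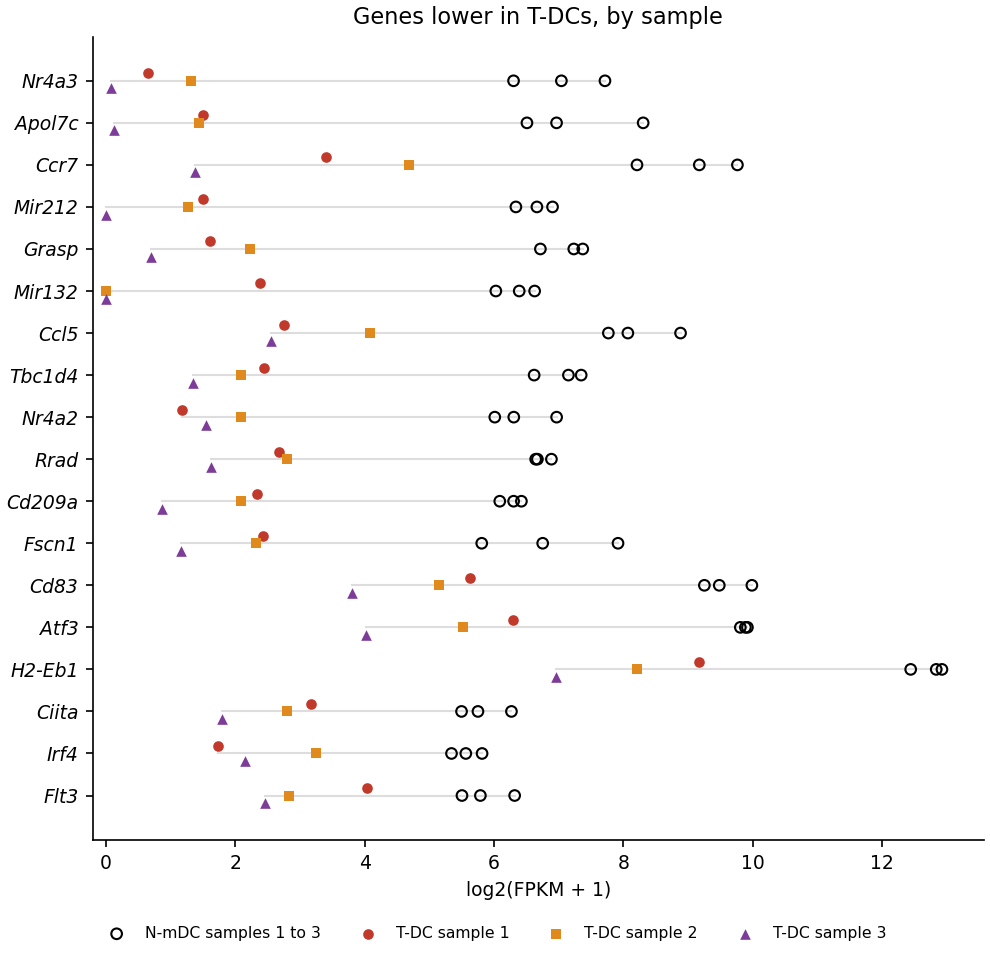
Level of 18 genes called lower in T-DCs, as log2(FPKM + 1) on the x axis, in the 3 N-mDC samples (open circles) and in T-DC samples 1, 2 and 3 (red circles, orange squares and purple triangles). T-DC samples lie to the left of N-mDC samples in every gene, and for Nr4a3, Apol7c, Mir212 and Mir132 at least 1 of them is at or near 0.

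Genes of MHCII presentation were lower, which the sort for low MHCII fixes in part. Over all tested genes 6.69% fell. Of the 13 tested genes of MHCII presentation, 11 fell, and 11 fell with T-DC sample 1 alone. With any library left out 10 to 12 fell. H2-Eb1, a beta chain of MHCII, was 7770, 7308 and 5559 FPKM in N-mDCs against 576, 295 and 124 FPKM in T-DCs (log2 fold change -4.62 ± 0.56, adjusted p = 0.00592). Ciita, the coactivator that turns on MHCII genes, was 76.1, 44.2 and 52.9 FPKM in N-mDCs against 8.01, 5.95 and 2.48 FPKM in T-DCs (log2 fold change -3.25 ± 0.40, adjusted p = 0.00634). The level of MHCII RNA in T-DCs was thus low but far from 0, and highest in T-DC sample 1. Since these are bulk samples, fewer cells that express a gene and less RNA per cell cannot be told apart. Of the 23 tested genes of class I presentation, 8 fell by log2 fold changes of -1.65 to -0.93, among them Psme2 and Psmb9 of the immunoproteasome and Tap1, the peptide transporter. TPM gave 5 calls in this list and T-DC sample 1 alone 1. Leaving out N-mDC sample 1, 2 or 3 gave 0, 1 and 0, T-DC sample 2 or 3 gave 0 and 0, and T-DC sample 1 gave 12. These calls thus depend on every library but T-DC sample 1.

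The pair of miRNA genes Mir212 and Mir132 were among the 10 largest decreases, and their mature sequences are shown because they share a seed. Of 87 tested miRNA genes, 8 were called, all lower, a share near the 8.96% called of all tested genes. Mature sequences are from RefSeq with the seed (bases 2 to 8) in capitals.
mmu-miR-212-3p: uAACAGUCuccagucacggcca
mmu-miR-132-3p: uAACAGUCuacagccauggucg
mmu-miR-212-5p: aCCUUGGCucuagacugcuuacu
mmu-miR-132-5p: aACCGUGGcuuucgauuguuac
The 3p forms have the seed AACAGUC in common, whereas the 5p forms have different seeds. Mir212 (chr11:75173388-75173478) and Mir132 (chr11:75173682-75173747) lie on the plus strand within the non-coding gene 1700016P03Rik (chr11:75172560-75177633, GRCm38). Mir212 was 119, 100 and 79.9 FPKM in N-mDCs against 1.84, 1.42 and 0 FPKM in T-DCs (log2 fold change -5.71 ± 0.42, adjusted p = 0.00237). Mir132 was 97.9, 82.8 and 64.3 FPKM in N-mDCs against 4.23, 0 and 0 FPKM in T-DCs (log2 fold change -5.55 ± 0.64, adjusted p = 0.00534). The host 1700016P03Rik was 62.3, 43.7 and 37.3 FPKM in N-mDCs against 0.582, 0.150 and 0 FPKM in T-DCs (log2 fold change -5.29 ± 0.29, adjusted p = 0.00201). Host and miRNA genes thus fell together in all T-DC samples, and reads on the hairpins cannot be told apart from reads of the host transcript, so the mature miRNAs were not measured. Mir5107, which fell from 400, 800 and 443 FPKM to 29.8, 12.5 and 5.99 FPKM, lies within the MHCII chaperone gene Cd74 on the same strand, which fell as well (log2 fold change -4.01 ± 0.51, adjusted p = 0.00668).

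Immediate early genes are transcription factors and phosphatases that respond first to a stimulus. Of 23 tested genes, 12 fell, against 6.69% of all tested genes. T-DC sample 1 shared 11 of the 12, and the median log2 fold change of the list was -2.01. T-DC sample 1 alone gave 7. Leaving out N-mDC sample 1, 2 or 3 or T-DC sample 1, 2 or 3 in turn gave 9, 8, 7, 20, 8 and 8. Atf3, a repressor induced by stress, was 966, 945 and 895 FPKM in N-mDCs against 77.1, 44.7 and 15.2 FPKM in T-DCs (log2 fold change -4.60 ± 0.55, adjusted p = 0.00577). Egr3, a zinc finger factor, was 41.2, 61.3 and 95.7 FPKM in N-mDCs against 2.14, 3.34 and 0.658 FPKM in T-DCs (log2 fold change -4.49 ± 0.45, adjusted p = 0.00422). Jun was called without being shared, at 717, 744 and 807 FPKM in N-mDCs against 341, 171 and 111 FPKM in T-DCs. Grasp, a scaffold of membrane receptors, and Rrad, a small GTPase, are no members of the list but were among the genes with the widest gap. Grasp was 149, 104 and 165 FPKM in N-mDCs against 2.06, 3.68 and 0.616 FPKM in T-DCs (log2 fold change -5.60 ± 0.42, adjusted p = 0.00237), and Rrad was 101, 117 and 99.0 FPKM in N-mDCs against 5.42, 5.93 and 2.09 FPKM in T-DCs (log2 fold change -4.37 ± 0.35, adjusted p = 0.00278).

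In the NF-kB pathway, 7 of 20 tested genes fell, all shared by T-DC sample 1, against 6.69% of all tested genes. Relb, the NF-kB subunit of DC maturation, was 144, 84.0 and 94.7 FPKM in N-mDCs against 19.2, 14.4 and 8.43 FPKM in T-DCs (log2 fold change -2.88 ± 0.36, adjusted p = 0.00634). Rel (log2 fold change -3.03 ± 0.50), the adaptor Traf1 (-3.04 ± 0.40) and the inhibitor Nfkbid (-2.67 ± 0.40) fell as well. T-DC sample 1 alone called 3 of the 20 genes. The number was 3, 5 and 2 without N-mDC sample 1, 2 or 3 and 12, 6 and 6 without T-DC sample 1, 2 or 3.

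Ligands and receptors of cell traffic followed. Of 18 tested chemokine ligands, 5 fell, while over all tested genes 6.69% fell and 2.27% rose. Ccl5, a ligand for effector T cells, was 471, 217 and 268 FPKM in N-mDCs against 5.76, 16 and 4.87 FPKM in T-DCs (log2 fold change -5.11 ± 0.49, adjusted p = 0.00415). Ccl22, a ligand for regulatory T cells made by mature DCs, was 37.5, 9.0 and 13.5 FPKM in N-mDCs against 0.0240, 0.361 and 0.340 FPKM in T-DCs (log2 fold change -3.85 ± 0.48, adjusted p = 0.00640). Of 16 tested chemokine receptors, 6 fell and Cx3cr1 rose, a call that was lost with TPM and with any N-mDC sample or T-DC sample 2 left out. Of the receptors for lipid mediators, 6 of 15 tested fell, and S1pr5 rose. Its paralog S1pr1, which guides lymphocytes out of tissue, moved the other way, from 12.2, 9.34 and 11.7 FPKM to 0.990, 2.92 and 1.21 FPKM (log2 fold change -2.22 ± 0.31, adjusted p = 0.00838). Gpr183, the oxysterol receptor that positions cDC2 in the spleen, fell from 36.9, 42.9 and 31.2 FPKM to 2.69, 3.49 and 1.55 FPKM (log2 fold change -3.44 ± 0.28, adjusted p = 0.00296). Ccl5, Ccl22, S1pr1 and Gpr183 were shared by T-DC sample 1. With a library left out, 3 to 10 of the ligands, 3 to 10 of the chemokine receptors and 5 to 8 of the lipid receptors were lower, each time with the most calls without T-DC sample 1 and the fewest ligands and chemokine receptors without N-mDC sample 3.

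Of the 21 tested cytokines, 6 fell, against 6.69% of all tested genes. Il1b, the inflammatory interleukin, was 858, 638 and 603 FPKM in N-mDCs against 147, 131 and 59.4 FPKM in T-DCs (log2 fold change -2.71 ± 0.40, adjusted p = 0.0104), and the decoy receptor Il1r2 was 116, 145 and 189 FPKM in N-mDCs against 3.48, 8.25 and 2.38 FPKM in T-DCs (log2 fold change -4.83 ± 0.41, adjusted p = 0.00312). Ligand and decoy receptor were both lower in every T-DC sample. Of 22 tested costimulatory and coinhibitory genes, 6 fell, among them Icosl (log2 fold change -3.17 ± 0.38), which costimulates T cells through ICOS, and Tnfsf9 (-2.80 ± 0.29), the ligand of 4-1BB. Without N-mDC sample 1, 2 or 3, the cytokines that fell numbered 2, 3 and 3 and the costimulatory genes 4, 5 and 4. Without T-DC sample 1, 2 or 3 they numbered 12, 3 and 3 and 11, 6 and 4.

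Of 6 tested genes of the conventional DC list (Itgax, Flt3, Zbtb46, Ptprc, Dpp4 and Kmo), 4 fell, against 6.69% of all tested genes. All 4 were shared by T-DC sample 1. Flt3, the receptor of the DC growth factor, was 78.8, 44.4 and 54.3 FPKM in N-mDCs against 15.4, 6.11 and 4.48 FPKM in T-DCs (log2 fold change -2.76 ± 0.45, adjusted p = 0.0140). Zbtb46, a transcription factor of conventional DCs, was 16, 11.7 and 12.1 FPKM in N-mDCs against 1.84, 2.84 and 3.42 FPKM in T-DCs (log2 fold change -1.96 ± 0.25, adjusted p = 0.00717). Itgax (CD11c), the marker of the sort, was 230, 158 and 160 FPKM in N-mDCs against 152, 90.4 and 43.0 FPKM in T-DCs and did not pass the test (log2 fold change -1.09 ± 0.47, adjusted p = 0.189). Itgax RNA was thus present in all T-DC samples. The number of these 6 genes that fell was 1, 3 and 1 without N-mDC sample 1, 2 or 3 and 6, 2 and 3 without T-DC sample 1, 2 or 3.

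Of 16 tested markers of cDC1, 6 fell, but T-DC sample 1 shared only Cd8a and Clec9a. For this and the next 2 lists the shares over all tested genes were 6.69% lower and 2.27% higher. Xcr1, the chemokine receptor of cDC1, was 18.9, 13 and 11.4 FPKM in N-mDCs against 6.81, 1.96 and 1.02 FPKM in T-DCs (log2 fold change -2.07 ± 0.50, adjusted p = 0.0489). T-DC sample 1 alone called 1 of the 16. Without N-mDC sample 1, 2 or 3 there were 0, 0 and 1 calls, and without T-DC sample 1, 2 or 3 there were 14, 1 and 2. The cDC1 calls thus depend on every library but T-DC sample 1. Irf8, the transcription factor of cDC1, was 101, 136 and 108 FPKM in N-mDCs against 90.2, 36.4 and 26.3 FPKM in T-DCs and did not pass the test (adjusted p = 0.119). The summed level of the cDC1 list did not fall in every T-DC sample. It was 847, 755 and 631 FPKM in N-mDCs against 478, 1379 and 1206 FPKM in T-DCs. However, only 1 member had a positive mean difference and 15 had a negative one. The median difference of the list was -0.79, -1.71 and -2.22 in T-DC samples 1 to 3. The higher sums of T-DC samples 2 and 3 thus do not describe most cDC1 markers. By flow cytometry, which counts cells and not RNA, the study found that most T-DCs were cDC1. In the study's single-cell RNA-seq of T-DCs, cDC1 was the largest cluster but no majority, followed by cDC2 and macrophage-like DCs. Of 16 tested markers of cDC2, 8 fell and 2 rose, all shared by T-DC sample 1. Leaving out N-mDC sample 1, 2 or 3 or T-DC sample 1, 2 or 3 in turn gave 5, 6, 5, 10, 7 and 5 lower genes. Cd209a, a C-type lectin, was 84.8, 67.1 and 77.9 FPKM in N-mDCs against 4.06, 3.26 and 0.832 FPKM in T-DCs (log2 fold change -4.50 ± 0.40, adjusted p = 0.00356). Irf4, the factor of cDC2 and of migration, was 55.3, 39.6 and 46.3 FPKM in N-mDCs against 2.31, 8.49 and 3.45 FPKM in T-DCs (log2 fold change -3.20 ± 0.40, adjusted p = 0.00650). The 2 that rose, Cx3cr1 and the lectin Clec4a3, are also expressed by monocytes. With TPM, or with any N-mDC sample or T-DC sample 2 left out, 0 of the cDC2 markers rose. Sirpa, the surface marker by which cDC2 are often sorted, was 195, 244 and 218 FPKM in N-mDCs against 404, 177 and 100 FPKM in T-DCs (adjusted p = 0.851). Of 13 plasmacytoid DC markers, 3 fell, and 3, 1 and 0 without N-mDC sample 1, 2 or 3 and 8, 2 and 1 without T-DC sample 1, 2 or 3. Siglech was 31.2, 50.2 and 69.3 FPKM in N-mDCs against 28.1, 12.2 and 9.23 FPKM in T-DCs (adjusted p = 0.0782).

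**Figure D4:**
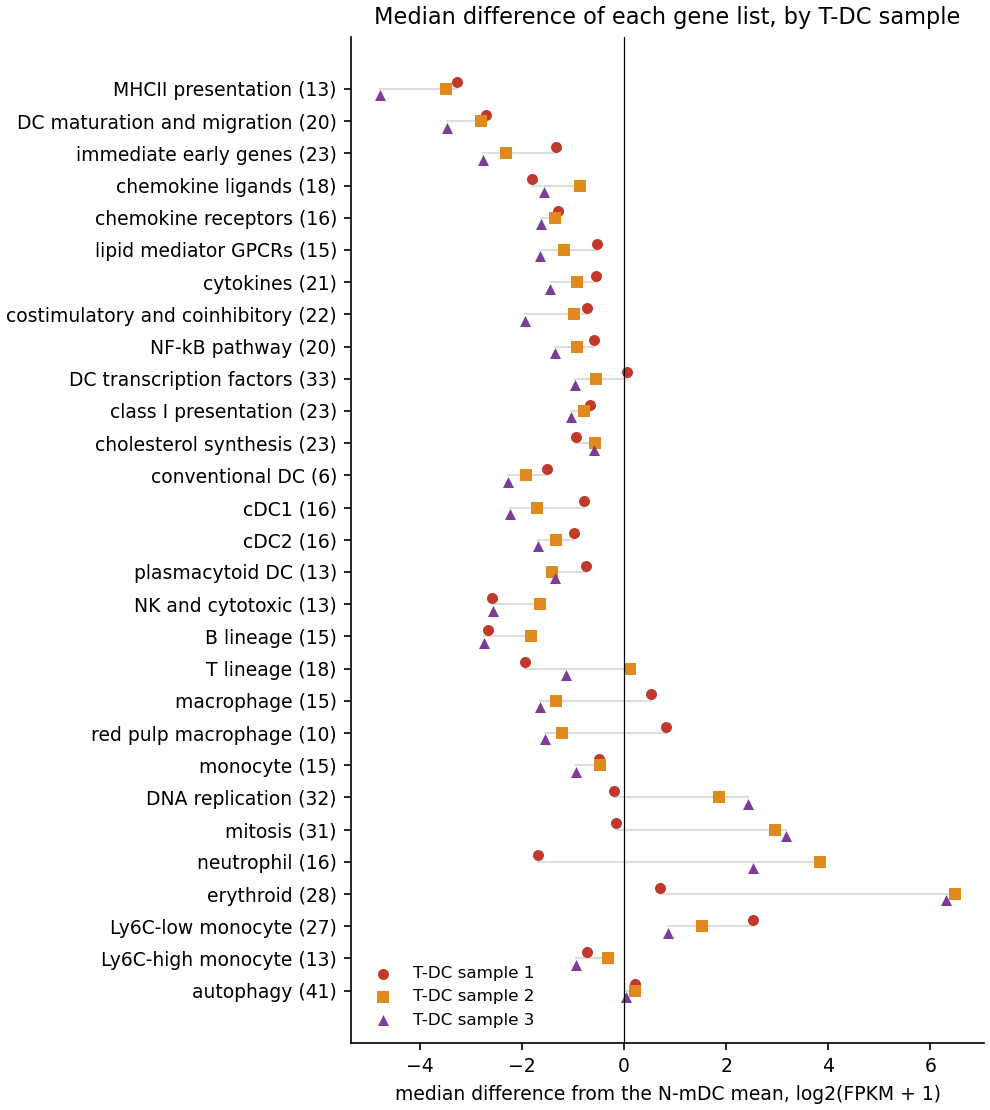
Median difference from the N-mDC mean over the tested genes of 29 lists (number in parentheses), in log2(FPKM + 1), for T-DC samples 1, 2 and 3. Lists of maturation, MHCII and immediate early genes are below 0 in all 3 samples, while cell cycle, neutrophil and erythroid lists are far above 0 in T-DC samples 2 and 3 only.

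Genes of sterol synthesis were lower in part. Of 23 tested genes of cholesterol synthesis and its control, 8 fell, all shared by T-DC sample 1, against 6.69% of all tested genes. Cyp51, an enzyme of the pathway, was 13.1, 13.5 and 15.3 FPKM in N-mDCs against 2.63, 4.75 and 4.49 FPKM in T-DCs (log2 fold change -1.62 ± 0.25, adjusted p = 0.0122). Insig1, which holds back the pathway's activation, was 26.6, 36.5 and 57.4 FPKM in N-mDCs against 12.1, 12.1 and 7.45 FPKM in T-DCs (log2 fold change -1.79 ± 0.34, adjusted p = 0.0239). Srebf2, the transcription factor of the pathway, fell too (log2 fold change -1.10 ± 0.23, adjusted p = 0.0314). With T-DC sample 1 alone 2 of the 23 were called, and 5 with TPM. Without any 1 of the N-mDC samples 1 was called, and without T-DC sample 1, 2 or 3 there were 11, 1 and 2. These calls too depend on every library but T-DC sample 1.

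Interferon-stimulated genes differed between T-DC samples. Of 38 tested, Mx1, Mx2 and Ifit3 fell, a share near the 6.69% of all tested genes. The number was 2 with T-DC sample 2 or any N-mDC sample left out, 6 without T-DC sample 3 and 9 without T-DC sample 1, when 5 rose. Mx1, an antiviral GTPase, was 23.6, 15.7 and 34.9 FPKM in N-mDCs against 3.86, 4.96 and 4.65 FPKM in T-DCs (log2 fold change -2.16 ± 0.31, adjusted p = 0.00979). Isg15, a ubiquitin-like protein, was 65.7, 77.0 and 77.0 FPKM in N-mDCs against 12.0, 183 and 491 FPKM in T-DCs, low in T-DC sample 1 and high in the other T-DC samples (adjusted p = 0.815). The median of the list was -1.13 in T-DC sample 1, -0.78 in T-DC sample 2 and 0.15 in T-DC sample 3.

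In the Notch pathway, by which the leukemia was driven, 4 of 17 tested genes fell and 1 rose. Over all tested genes 6.69% fell and 2.27% rose. With a library left out 2 to 8 of the list fell, the fewest without N-mDC sample 3 and the most without T-DC sample 1. Dtx1, a target gene of Notch, was 60.0, 51.3 and 37.8 FPKM in N-mDCs against 1.10, 5.58 and 1.21 FPKM in T-DCs (log2 fold change -3.99 ± 0.47, adjusted p = 0.00546). The ligand Dll4 was 1.76, 3.48 and 6.59 FPKM in N-mDCs against 0.623, 0.201 and 0.137 FPKM in T-DCs (log2 fold change -1.80 ± 0.38, adjusted p = 0.0318). Adam10, a protease that cleaves Notch, rose from 21.4, 13 and 24 FPKM to 41.3, 92.9 and 72.7 FPKM (log2 fold change 1.74 ± 0.38, adjusted p = 0.0347). It met the rule for a shared gene but was not called with T-DC sample 1 alone (adjusted p = 0.217) or with TPM.

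Most markers of B and NK cells, and few of T cells, were called lower in T-DCs, where 6.69% of all tested genes were lower. Of 15 tested B-lineage genes, 12 fell (11 shared by T-DC sample 1), and of 13 tested NK and cytotoxic genes, 11 fell, all shared. Leaving out N-mDC sample 1, 2 or 3 or T-DC sample 1, 2 or 3 in turn gave 6, 5, 4, 13, 10 and 7 of the B and 9, 4, 4, 11, 10 and 4 of the NK genes. Klrd1 (CD94), a receptor of NK cells, was 93.2, 70.1 and 72.7 FPKM in N-mDCs against 7.98, 6.20 and 2.47 FPKM in T-DCs (log2 fold change -3.70 ± 0.38, adjusted p = 0.00423). The summed level of the NK list was 168 to 274 FPKM in N-mDCs against 10.7 to 43.7 FPKM in T-DCs, and no gene of the list was at 0 in all T-DC samples. The sum of the B list, 1829 to 12078 FPKM in N-mDCs against 1032 to 11059 FPKM in T-DCs, is mostly Igkc and Ighm, which did not move with the rest (adjusted p = 0.969 and 0.974). Of 18 tested T-lineage genes, 4 fell (3, 2 and 2 without N-mDC sample 1, 2 or 3 and 4, 5 and 2 without T-DC sample 1, 2 or 3), and the sum of the list was 257 to 394 FPKM in N-mDCs against 33.4 to 164 FPKM in T-DCs. The lower genes above that lymphocytes also express, such as Ccl5, S1pr1, Gpr183, Ltb and Spib, moved beside these markers, and the part of the markers in their change was not tested.

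The summed levels of markers of red cells, dividing cells and neutrophils were higher in T-DC samples 2 and 3 than in the other samples, least so for neutrophil genes in T-DC sample 3. The summed level of the erythroid list was 120, 5472 and 529 FPKM in N-mDCs against 728, 64060 and 46773 FPKM in T-DCs. Gata1, the transcription factor of red cell precursors, was 0.131, 1.83 and 0.226 FPKM in N-mDCs against 1.24, 108 and 124 FPKM in T-DCs (log2 fold change 4.31 ± 1.48, adjusted p = 0.123). Of 28 tested erythroid genes, Nfe2 was called higher, where 2.27% of all tested genes were, with 23 at an unadjusted p under 0.05. Without T-DC sample 1, all 28 were called, and with T-DC sample 1 alone 0 were (1 with limma voom on all samples).

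Mki67, a marker of cycling cells, was 8.50, 8.70 and 8.80 FPKM in N-mDCs against 8.25, 247 and 183 FPKM in T-DCs (log2 fold change 2.96 ± 1.16, adjusted p = 0.159). T-DC sample 1 thus had the level of N-mDCs. Of 31 tested mitosis genes and 32 tested genes of DNA replication, limma called 0, although all had a positive mean difference. At an unadjusted p under 0.05 there were 13 and 6. With limma voom 0 were called as well, with 12 and 4 at an unadjusted p under 0.05. Without T-DC sample 1, 31 of 31 and 31 of 32 were called. Of 16 tested neutrophil genes limma called 0, with 0 at an unadjusted p under 0.05. Limma voom also called 0, with 2 lower genes at an unadjusted p under 0.05. S100a8, a neutrophil protein, was 13.9, 106 and 200 FPKM in N-mDCs against 2.33, 970 and 348 FPKM in T-DCs (adjusted p = 0.878). T-DC sample 1 lay within the range of N-mDCs or below it in the summed level of each of these lists, and the origin of these RNAs in T-DC samples 2 and 3 was not tested.

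**Figure D5:**
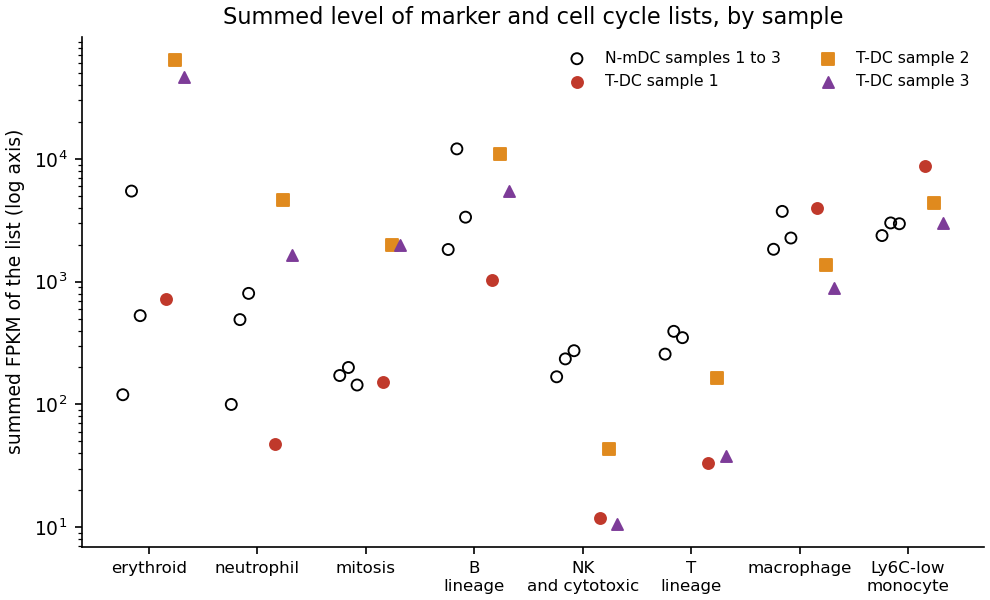
Summed FPKM (log axis) of 8 gene lists in the 3 N-mDC samples (open circles) and T-DC samples 1, 2 and 3 (red circles, orange squares and purple triangles). For erythroid and mitosis genes T-DC samples 2 and 3 stand above all other samples, NK and T-lineage genes are lower in all T-DC samples, and the list of Ly6C-low monocytes is highest in T-DC sample 1.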

How the data were processed

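Total RNA of sorted splenic cells was sequenced, and the authors deposited FPKM per gene, with mm10 named in the submitters' processing notes. The aligner, annotation and strand setting are not given in the sources used here, so overlapping genes cannot be told apart. FPKM times gene length gave whole reads (largest distance 5.77e-05 of a read), between 15360815 and 18440913 per sample, and 1 read on 1 kb was worth 0.0551 to 0.0659 FPKM.

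Genes that reached 1 FPKM in 3 or more of the 6 samples entered the test on log2(FPKM + 1) with limma 3.58.1 in R 4.3.3 (lmFit, eBayes with a variance trend, two-sided), with p adjusted by Benjamini-Hochberg over 12127 genes and a threshold of 0.05. Adding 1 understates the fold changes of low genes. As an alternative, limma voom on the recovered reads called 234 higher and 834 lower genes. Other alternatives changed the filter, pseudocount, scaling, covariates and samples.

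Named were the 10 largest increases and decreases, the 10 higher and 10 lower shared genes with the widest gap (models without a standard symbol are counted only), up to 4 called members of each list in each direction, defining markers and members whose missing call is told, and genes the study measured or named. Other genes, and the lists for Ly6C-low and Ly6C-high monocytes and autophagy, were chosen after their values were seen. Members and lists were chosen with earlier results of these data known.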

Additional observations from a re-analysis of the deposited data

How the results depend on the processing

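Of 263 named genes, 223 were called, and all 223 kept their direction under the alternatives that tested them (all 18 for 180 genes and 17 for 43, which the filter of at least 5 FPKM left out). Of the 40 not called, 16 changed sign under at least 1 alternative. The sign turned with an adjusted p under 0.05 in Isg15, at -2.51 with T-DC sample 1 alone (adjusted p = 0.0174), and in S100a8, at -5.23 with the erythroid level as a covariate (adjusted p = 0.0366). The number of higher genes (275) was 167 with TPM, 788 with all 9 samples in the fit and 85 without a filter, and the number of these shared by T-DC sample 1 (255) was 137, 537 and 85. The number of lower genes (811) was 482 with at least 5 FPKM, 301 with T-DC sample 1 alone, 1285 with all 9 samples, 386 with the erythroid covariate and 417 without a filter. With 1 sample left out, the ranges were 40 to 2043 higher, 270 to 1957 lower and 40 to 80 shared genes, and the cause of these differences was not tested. With T-DC sample 1 alone, that lone sample was assumed to vary like N-mDCs. The replicate numbers did not pair the samples (r of same-numbered samples 0.28, 0.224 and -0.193). A fit with the replicate number as a block called 311 higher, 766 lower and 186 shared genes, and 26 of 28 erythroid genes. With 3 samples per group, changes of low genes were limited by depth, at 0.0551 to 0.0659 FPKM per read on 1 kb.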

Other observations

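Genes of autophagy were looked at in a list of 41 tested genes that was written after their values had been seen. Of these, 7 rose, 6 of them shared by T-DC sample 1, and 2 fell, with a median log2 fold change of 0.14. Over all tested genes 2.27% rose and 6.69% fell. Bnip3l, a receptor for the removal of mitochondria that is also high in maturing red cells, was 22.2, 22.7 and 24.2 FPKM in N-mDCs against 58.4, 113 and 69.7 FPKM in T-DCs (log2 fold change 1.70, limma with Benjamini-Hochberg adjusted p = 0.0173). Wipi1, which binds the growing autophagosome, was 0.435, 0.676 and 0.537 FPKM in N-mDCs against 2.08, 9.89 and 14.7 FPKM in T-DCs (log2 fold change 2.38 ± 0.57, adjusted p = 0.0470) and was not shared by T-DC sample 1. The others that rose were Atg4d, Atg9a, Ulk1, Wipi2 and Vmp1, with log2 fold changes of 0.96 to 1.79. These calls depended on the setting. With T-DC sample 1 alone 0 of the list rose, with the erythroid level as a covariate 1, with TPM 4, and without N-mDC sample 1, 2 or 3 there were 0, 1 and 1, while without T-DC sample 1, 2 or 3 there were 11, 0 and 2. The erythroid sum moved beside them, at 728 FPKM in T-DC sample 1 and 64060 and 46773 FPKM in T-DC samples 2 and 3, and its part in these increases was not tested.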
